A study of Rattus norvegicus with 8 samples.

Results

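The adipocyte genes described here are 9 transcripts that mark mature fat cells: Adipoq, Plin1, Plin4, Cidec, Lep, Cfd, Lipe, Pck1 and Retn. They were chosen by name, and each name matched 1 gene among the 32623 listed in every library. RNA came from the outflow vein (the epigastric vein joined to the femoral artery) of 8 Sprague Dawley rats at 21 days after arteriovenous fistula (AVF) creation. A nanofiber scaffold lay around the vein from the time of surgery. In the BAPN group (n = 4, replicates 1 to 3 female and replicate 4 male) the scaffold released β-aminopropionitrile, an inhibitor of lysyl oxidases, the enzymes that crosslink collagen and elastin. In the Vehicle group (n = 4, replicates 1 and 2 female, replicates 3 and 4 male) the scaffold carried no BAPN, so both groups had the surgery and a scaffold and no unwrapped vein was compared. The question was whether fat cell transcripts differed between the groups, and in which libraries, since the fat that stays on a dissected vein may differ from one animal to the next.

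White fat cells store triglyceride in a single large lipid droplet. Droplet coat proteins (Plin1, Plin4, Cidec) shield this store, lipases such as the product of Lipe release fatty acids from it, and Pck1 makes the glycerol backbone on which fatty acids are put back. Fat cells also secrete hormones and other proteins, among them adiponectin (Adipoq), leptin (Lep), resistin (Retn) and adipsin (Cfd). The epigastric vein runs through the inguinal fat pad, in which the mammary gland of female rats is embedded. In RNA from a whole piece of vein, fewer fat cells and less RNA per fat cell cannot be told apart.

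Promoters of 8 of the 9 genes were found in the RefSeq promoter set (build GRCr8), each with 250 bases before and 50 after the start of the gene. The 4 shown here belong to the 3 genes whose levels moved most closely together across the libraries (Adipoq, Plin1 and Retn) and to Pck1, whose libraries stood in another order. Capitals mark matches, on either strand, to any of 5 short motifs: TTGCNNAA (C/EBP), AGGTCA (a single nuclear receptor site), TATAAA (the TATA box), ACGTCA (the core of a cAMP response element) and CCAAT (the CCAAT box, which reads ATTGG on the other strand). The Adipoq window was chr11:91240120-91240419 and the Plin1 window chr1:143086099-143086398, both on the minus strand. The Retn window was chr12:6508524-6508823 and the Pck1 window chr3:182348322-182348621, both on the plus strand. No pair of the matches marked here overlapped.
Adipoq: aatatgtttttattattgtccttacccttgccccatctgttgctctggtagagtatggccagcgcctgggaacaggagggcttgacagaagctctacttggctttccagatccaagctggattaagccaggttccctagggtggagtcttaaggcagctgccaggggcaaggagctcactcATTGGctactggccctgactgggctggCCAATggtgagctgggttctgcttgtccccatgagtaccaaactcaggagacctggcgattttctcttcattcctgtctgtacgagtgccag
Plin1: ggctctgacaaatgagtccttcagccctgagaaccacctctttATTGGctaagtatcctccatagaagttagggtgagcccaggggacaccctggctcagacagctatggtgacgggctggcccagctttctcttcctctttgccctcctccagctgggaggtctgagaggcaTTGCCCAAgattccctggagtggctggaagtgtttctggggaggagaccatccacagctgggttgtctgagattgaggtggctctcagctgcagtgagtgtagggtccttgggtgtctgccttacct
Retn: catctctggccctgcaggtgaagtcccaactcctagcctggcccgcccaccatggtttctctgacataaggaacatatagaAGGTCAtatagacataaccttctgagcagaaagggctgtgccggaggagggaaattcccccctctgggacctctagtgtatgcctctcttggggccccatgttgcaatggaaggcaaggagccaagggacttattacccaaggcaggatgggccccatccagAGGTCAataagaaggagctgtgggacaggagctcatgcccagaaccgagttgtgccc
Pck1: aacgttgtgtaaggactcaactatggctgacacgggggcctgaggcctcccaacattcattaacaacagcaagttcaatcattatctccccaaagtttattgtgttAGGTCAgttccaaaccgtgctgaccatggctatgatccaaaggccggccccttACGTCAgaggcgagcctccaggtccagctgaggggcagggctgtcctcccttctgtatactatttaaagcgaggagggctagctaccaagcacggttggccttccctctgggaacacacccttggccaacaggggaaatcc

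The C/EBP letters stood in 3 of the 8 windows (Plin1, Cidec and Lep), against 10.6% of 33469 rat promoters of the same length. AGGTCA stood in 2 of 8 (Pck1 and Retn, with 2 matches in Retn), against 16.2%. CCAAT stood in 3 of 8 (Adipoq, Plin1 and Lep), against 37.5%. Pck1 alone held ACGTCA, which 7.94% of promoters held. TATAAA stood in 0 of 8 windows and in 14.2% of promoters. The matches describe letters only, and binding of these windows was not measured.

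Depth separated the groups, with 45039451 to 52241007 counted reads per library with BAPN and 19548203 to 22442050 with Vehicle, and effects of library preparation or sequencing on these values and effects of BAPN cannot be told apart. The 9 genes together took 0.0182% to 0.0375% of the reads with BAPN and 0.0274% to 0.0794% with Vehicle. Levels are given as CPM (reads scaled to a common library size by TMM), with means ± SD of 4 rats per group. Among the genes with a base mean (the mean count after scaling over all 8 libraries) of at least 100, edgeR's quasi-likelihood test called 9.25% lower and 7.5% higher with BAPN at a false discovery rate (FDR, adjusted over all 11682 tested genes) below 0.05. Lep, with a base mean of 40.8, was the only one of the 9 genes that was not tested in this way. Myh11 of smooth muscle (277 to 1540 CPM) and Cdh5 of endothelium (69.5 to 336 CPM) were counted in every library, as the vein label implies.

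The droplet coat genes Plin1, Plin4 and Cidec had lower mean levels with BAPN, and Plin1 passed the test. Of the coat genes outside the 9, Plin2, which coats droplets in many cell types, was 344.5 ± 143 CPM with BAPN and 220.4 ± 72.6 CPM with Vehicle (log2 fold change 0.64, FDR = 0.181 with edgeR), and Plin3 had a log2 fold change of -0.17 (FDR = 0.325). Plin1 (ENSRNOG00000015086), whose product guards the droplet surface against lipases, had 10.9, 6.35, 8.42 and 4.91 CPM in BAPN 1 to 4 and 61.3, 40.4, 27.5 and 4.54 CPM in Vehicle 1 to 4. The first 3 Vehicle libraries lay above every BAPN library, and Vehicle 4 lay below them all. The means were 7.65 ± 2.61 with BAPN and 33.4 ± 23.8 with Vehicle, a log2 fold change of -2.13 (SE 0.74, FDR = 0.0443 with edgeR). Here and below the SE comes from a separate fit (limma voom), so a fold change divided by its SE is no test that was run. Plin1 was the 1 gene called of the 8 tested, a share near the 9.25% of all tested genes called lower, so the count is no result about these genes. The exact two-sided permutation test of Plin1 alone gave p = 0.143, where 4 rats against 4 allow no p below 0.0286. The Plin1 call was lost when any library other than Vehicle 4 was left out (FDR up to 0.118, without Vehicle 1).

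Plin4 (ENSRNOG00000047046), which coats small and new droplets, had 7.20, 6.61, 2.05 and 3.72 CPM in BAPN 1 to 4 and 16.2, 11.6, 13.4 and 6.88 CPM in Vehicle 1 to 4. The groups met only at the edge, where Vehicle 4 lay below BAPN 1. Its log2 fold change was -1.29 (SE 0.41, FDR = 0.0566 with edgeR). Cidec (ENSRNOG00000009153), whose product enlarges droplets by passing lipid from one to another, had 7.11, 2.96, 4.89 and 2.42 CPM in BAPN 1 to 4 and 19.6, 14.5, 6.57 and 6.11 CPM in Vehicle 1 to 4. Here BAPN 1 lay above both male Vehicle libraries, and the other 3 BAPN libraries lay below all of Vehicle. Its log2 fold change was -1.43 (SE 0.47, FDR = 0.0626 with edgeR).

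**Figure D1:**
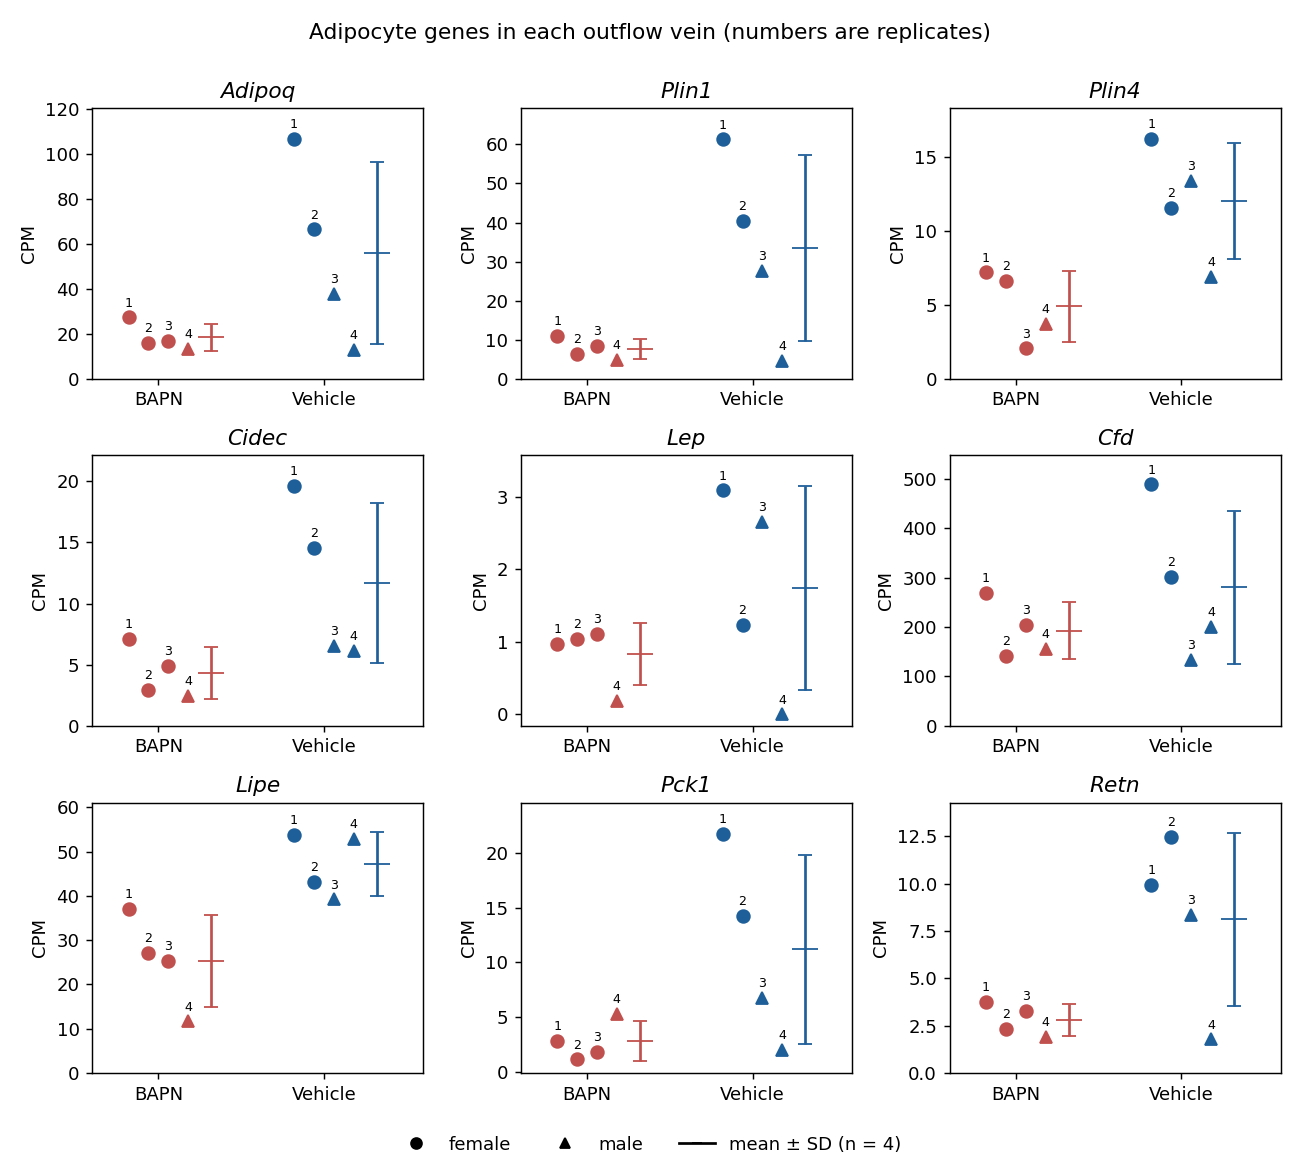
Level of each of the 9 adipocyte genes (vertical axes, CPM on linear scales that differ between panels) in the 4 BAPN and 4 Vehicle libraries, with females as circles, males as triangles, replicate numbers above the points, and bars for mean ± SD. Vehicle 1 and 2 lie high in most panels, Vehicle 4 lies at the BAPN level for Adipoq, Plin1, Pck1 and Retn, and Lipe is the only gene whose groups do not overlap.

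Of the enzymes, Lipe (ENSRNOG00000020546) encodes hormone-sensitive lipase, which cleaves stored glycerides when hormones call for fatty acids and is also made outside fat. It had 37.1, 27.1, 25.2 and 11.6 CPM in BAPN 1 to 4 and 53.8, 43.2, 39.2 and 52.8 CPM in Vehicle 1 to 4. Every BAPN library lay below every Vehicle library, which was so for 1 of the 8 tested adipocyte genes and for 11.9% of all tested genes. The means were 25.3 ± 10.5 and 47.2 ± 7.19, a log2 fold change of -0.90 (SE 0.31, FDR = 0.0635 with edgeR). Its exact permutation p was 0.0286, the smallest that 4 against 4 can give.

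Pck1 (ENSRNOG00000028616), the cytosolic phosphoenolpyruvate carboxykinase, had 2.80, 1.12, 1.82 and 5.32 CPM in BAPN 1 to 4 and 21.8, 14.3, 6.78 and 2.01 CPM in Vehicle 1 to 4. BAPN 4 was the highest library of its group and Vehicle 4 the lowest of its own, and both came from males. The means were 2.77 ± 1.84 and 11.2 ± 8.67, and the log2 fold change was -2.02 (SE 0.76, FDR = 0.0722 with edgeR).

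Among the secreted products, Adipoq (ENSRNOG00000001821), the adiponectin gene and the transcript most particular to fat cells, had 27.2, 15.9, 16.7 and 13.4 CPM in BAPN 1 to 4 and 106.7, 66.4, 37.6 and 12.8 CPM in Vehicle 1 to 4. As with Plin1, Vehicle 1 to 3 lay above all BAPN libraries and Vehicle 4 below them. The means were 18.3 ± 6.10 and 55.9 ± 40.4, a log2 fold change of -1.61 (SE 0.56, FDR = 0.0647 with edgeR). Retn (ENSRNOG00000001001), the resistin gene, had 3.75, 2.31, 3.25 and 1.90 CPM in BAPN 1 to 4 and 9.93, 12.5, 8.33 and 1.77 CPM in Vehicle 1 to 4. Again only Vehicle 4 reached the BAPN level. Its log2 fold change was -1.53 (SE 0.57, FDR = 0.0654 with edgeR).

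Cfd (ENSRNOG00000033564) encodes adipsin, or complement factor D, the protease that starts the alternative complement pathway. It had 269, 142, 203 and 155 CPM in BAPN 1 to 4 and 488, 301, 133 and 200 CPM in Vehicle 1 to 4. The groups overlapped, and Vehicle 3 held the lowest value of all 8 libraries. The log2 fold change was -0.55 (SE 0.38, FDR = 0.316 with edgeR), and it moved between -0.78 and -0.14 when single libraries were left out.

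Lep (ENSRNOG00000045797), the leptin gene, was counted at a low level, with 47, 53, 48 and 9 reads in BAPN 1 to 4 and 66, 25, 63 and 0 reads in Vehicle 1 to 4. In CPM these were 0.975, 1.05, 1.11 and 0.188 with BAPN and 3.09, 1.24, 2.65 and 0 with Vehicle. The 0 in Vehicle 4 allows a level of up to 0.143 CPM (3 reads), which covers counting error only. The group difference in log2 CPM (prior count 2) was -0.24 with an exact permutation p of 0.914, and its sign changed with the prior count and with the libraries used. The difference was within the spread between libraries.

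Direction was shared where size was not. The log2 fold change was below 0 for 8 of the 8 tested genes, against 48.4% of all tested genes, with a median of -1.48. Several of these genes moved together over the same 8 libraries (r = 0.984 for Adipoq and Plin1). All were chosen with earlier results of these data known. Counts of them are therefore not counts of separate outcomes. For 7 of 8, all but Cfd, the unadjusted edgeR p was below 0.05 in the lower direction, which held for 18.4% of all tested genes. The 6 of these besides Plin1 had FDR values between 0.0566 and 0.0722, just outside the threshold. DESeq2 on the same counts called these 7 lower (FDR 0.00164 to 0.0177) and Cfd not (FDR = 0.257), where it called 15.1% of all tested genes lower. The fold changes of the methods were alike (-2.14 for Plin1 with DESeq2), so the number called rests on the test: 1 of 8 with edgeR and 7 of 8 with DESeq2. In counts simulated from these libraries with 200 genes changed by 1.5 log2, edgeR found 179 with 13 false calls and DESeq2 found 185 with 34 false calls. The simulation gave each gene the same spread in both groups. In the data the SD of log2 CPM of Plin1 was 0.495 with BAPN and 1.65 with Vehicle. The simulation therefore cannot say which number called is right for these genes.

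**Figure D2:**
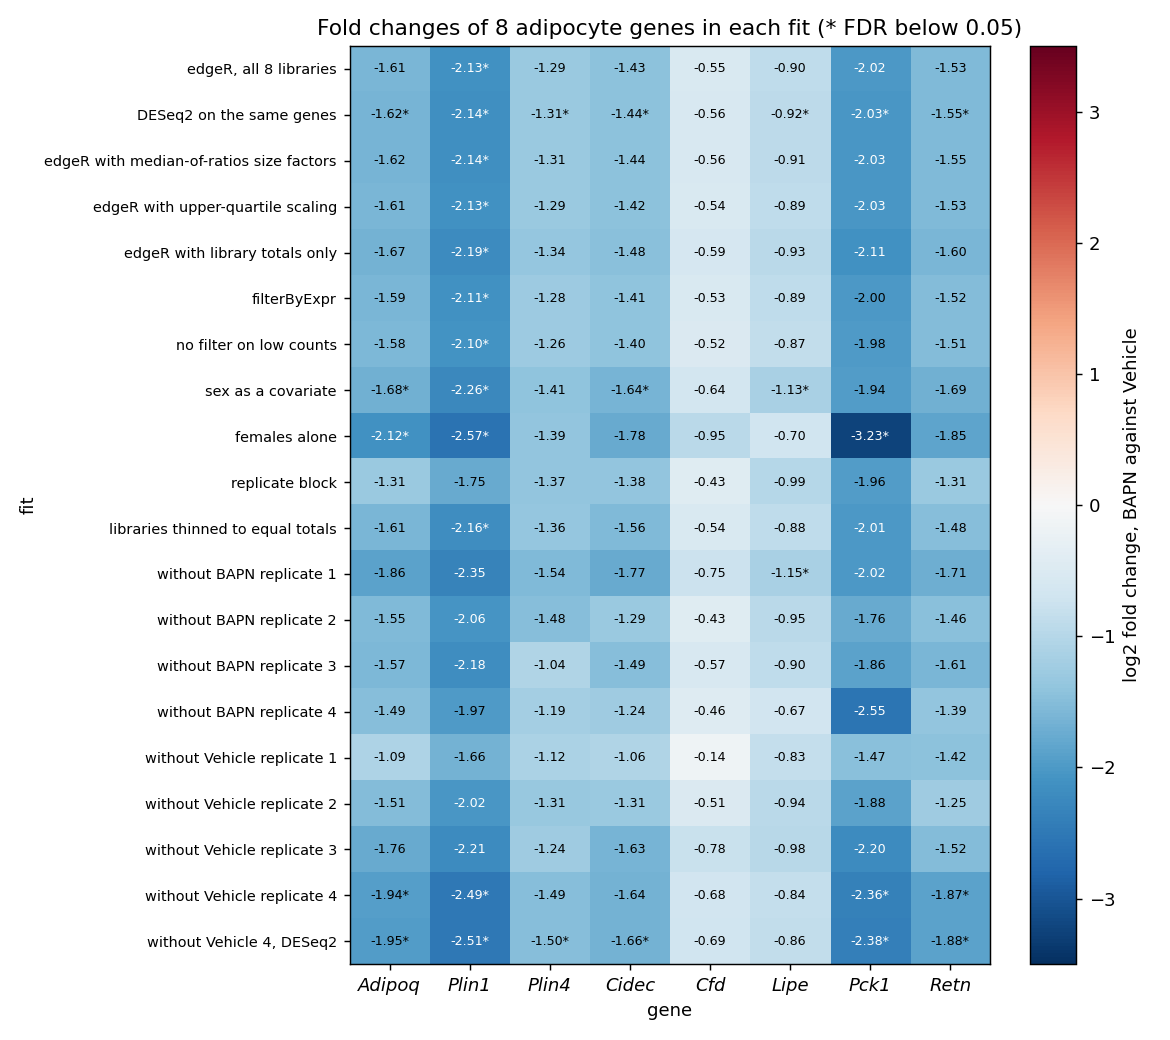
Log2 fold change of BAPN against Vehicle (number and colour) for the 8 tested adipocyte genes (columns) in the edgeR comparison of all 8 libraries and 19 other fits (rows), with an asterisk where the FDR was below 0.05. Every value lies below 0, and the asterisks are most numerous with DESeq2.

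Vehicle 4 stood apart from the other Vehicle libraries for most of these genes. Relative to the mean of Vehicle 1 to 3 it held 0.105 of the Plin1 level, 0.141 of Pck1, 0.173 of Retn and 0.182 of Adipoq. It held 0.451 of Cidec, 0.501 of Plin4, 0.650 of Cfd and 1.16 of Lipe. The lipase gene thus stayed at the Vehicle level in the animal in which the most particular fat cell transcripts were at the BAPN level. Without Vehicle 4, edgeR called 4 of the 8 genes lower, namely Adipoq (FDR = 0.0201), Plin1 (0.00849), Pck1 (0.0373) and Retn (0.0153), against 4.67% of all tested genes. Vehicle 4 lay at the BAPN level for these same 4 genes, so calls gained by leaving it out support nothing. Each of the other 7 fits that left out 1 library called 0 or 1 of the 8 genes, with Lipe the 1 called, without BAPN 1 (FDR = 0.0412).

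Sex was uneven between the groups, and the male libraries held most of the overlap. In females, every BAPN library lay below both Vehicle libraries for 9 of the 9 genes (Lep, which was not tested, included), against 22.1% of all tested genes. For Lep the gap was narrow, with 1.24 CPM (25 reads) in Vehicle 2 and 1.11 CPM (48 reads) in BAPN 3. Genes that moved together are not separate outcomes here either. The mean of the female Vehicle libraries was 9.41 times that of the female BAPN libraries for Pck1, 5.94 times for Plin1 and 4.34 times for Adipoq. It was 3.60 times for Retn, 3.42 times for Cidec, 2.63 times for Plin4, 2.07 times for Lep, 1.93 times for Cfd and 1.63 times for Lipe. In the edgeR comparison of females alone (3 against 2), Adipoq (log2 fold change -2.12, FDR = 0.0462), Plin1 (-2.57, 0.0331) and Pck1 (-3.23, 0.0422) were called lower, 3 of 8 genes against 0.462% of all tested genes. This comparison also leaves out Vehicle 4, together with Vehicle 3 and BAPN 4, and its calls are among the 4 made without Vehicle 4, so it is no separate support for them. With sex as a covariate, Adipoq (FDR = 0.0441), Plin1 (0.0389), Cidec (0.0281) and Lipe (0.0499) were called lower, 4 of 8 against 4.63%.

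The males were too few for a comparison of their own. In BAPN 4, the only male with BAPN, Adipoq was 13.4 CPM, and in Vehicle 3 and 4 it was 37.6 and 12.8 CPM. The difference between the treatment effects in males and females passed the threshold for 0 of the 8 genes (edgeR interaction, FDR 0.252 to 0.99). Its unadjusted p was below 0.05 for Pck1 (0.00526) and Lipe (0.012), with opposite signs, a log2 difference (males minus females) of 3.51 for Pck1 and -1.28 for Lipe. With 1 male in the BAPN group this term rests on that library.

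The order of the 8 libraries was the same for Adipoq and Plin1, from Vehicle 1, 2 and 3 through BAPN 1, 3, 2 and 4 to Vehicle 4. Retn had this order with Vehicle 1 and 2 exchanged. Within the order, BAPN 3 and 2 (16.7 and 15.9 CPM of Adipoq) and BAPN 4 and Vehicle 4 (13.4 and 12.8 CPM) were close neighbours that the spread within a group does not separate. Over the 8 libraries the correlation of log2 CPM was 0.984 between Adipoq and Plin1 and 0.978 between Plin1 and Retn. After each group's mean was subtracted the values were 0.975 and 0.965, so the genes moved together within the groups as well as between them. Lipe did not follow: its correlation with Adipoq was 0.568 over all libraries and 0.229 within the groups. These libraries differ in depth and sex, and the correlations are given as a description.

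The mix of fat cell transcripts also differed between libraries. Per 100 Adipoq reads of the same library there were 36.6 to 50.3 Plin1 reads with BAPN, and 57.4, 60.9, 73.2 and 35.6 in Vehicle 1 to 4. There were 86.6 to 170.5 Lipe reads per 100 Adipoq reads with BAPN, against 50.4, 65.0 and 104.3 in Vehicle 1 to 3 and 413.9 in Vehicle 4. For Cfd there were 890 to 1216 with BAPN, against 354 to 458 in Vehicle 1 to 3 and 1568 in Vehicle 4. In BAPN 4 there were 39.7 Pck1 reads per 100 Adipoq reads, against 7.06 to 10.9 in BAPN 1 to 3. The BAPN libraries and Vehicle 4 thus held more Lipe and Cfd reads for each Adipoq read than Vehicle 1 and 2 did.

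A wider set of 67 genes of fat cell biology was read beside the 9. Of these, 65 were found and 52 were tested, and edgeR called 15 lower and 2 higher with BAPN, against 9.25% and 7.5% of all tested genes. For 12 of the 15, Vehicle 4 held at least 0.8 of the mean of Vehicle 1 to 3, and for 2 it held under 0.5. Of the 8 tested adipocyte genes, 5 were under 0.5 there, so most of the 15 did not share that low Vehicle 4 level. The 15 became 21 with DESeq2 (15.1% of all tested genes), 10 with sex as a covariate (4.63%) and 3 in females alone (0.462%). They became 7 with the replicate number as a block and 4 without Vehicle 1, where the share was not worked out. The log2 fold change was below 0 for 37 of the 52, against 48.4% of all tested genes, with a median of -0.43, against -1.48 for the 8 tested adipocyte genes. Mlxipl and Cd36 were not analysed here. Ucp1, the uncoupling protein of brown fat, had 0 reads in every library, and Pnpla2, the lipase that acts before the product of Lipe, had a base mean of 3.67, too low to be tested.

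Of the 10 tested genes of the hormone and glucose response, edgeR called 5 lower, among them Irs1, Slc2a4, Trarg1 and Rbp4, and 1 higher, Angptl4, against 9.25% and 7.5% of all tested genes. Irs1, which relays the signal of the insulin receptor, had 8.96, 10.3, 5.77 and 9.35 CPM in BAPN 1 to 4 and 42.4, 23.5, 26.2 and 41.1 CPM in Vehicle 1 to 4 (log2 fold change -1.95, SE 0.26, FDR = 0.00576 with edgeR). The groups were far apart and Vehicle 4 was among the high libraries, unlike for Plin1 and Adipoq. Slc2a4, the insulin-responsive glucose transporter of fat and muscle, had 5.14, 4.26, 4.41 and 2.15 CPM in BAPN 1 to 4 and 8.05, 13.0, 15.6 and 14.3 CPM in Vehicle 1 to 4 (-1.67, SE 0.32, FDR = 0.0139 with edgeR). Trarg1, a protein of the vesicles that carry this transporter, fell by 1.16 on the log2 scale (FDR = 0.0111), and Rbp4, which carries retinol in blood, fell by 1.34 (FDR = 0.0264). Angptl4, a secreted inhibitor of lipoprotein lipase, rose, with 101, 76.6, 58.5 and 86.9 CPM in BAPN 1 to 4 and 42.4, 38.7, 42.6 and 23.6 CPM in Vehicle 1 to 4 (log2 fold change 1.13, SE 0.23, FDR = 0.0161 with edgeR).

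Of the 13 tested genes of fatty acid and triglyceride synthesis, 3 were called lower (9.25% of all tested genes) and 0 higher. Gpd1, which makes glycerol phosphate for triglyceride, had 10.2, 4.32, 6.25 and 6.83 CPM in BAPN 1 to 4 and 47.3, 47.0, 22.6 and 9.32 CPM in Vehicle 1 to 4 (log2 fold change -2.19, SE 0.54, FDR = 0.0216 with edgeR). Its Vehicle 4 level was 0.239 of the mean of Vehicle 1 to 3, against 0.182 for Adipoq. Of 9 tested genes of droplets and lipolysis, Cavin1, a coat protein of caveolae that many vascular cells make, was the 1 called lower (-1.03, SE 0.20, FDR = 0.0177). It was 1296 CPM in Vehicle 4, the highest of all libraries.

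Of 8 tested transcription factors of fat cells, 3 were called lower (9.25% of all tested genes) and 0 higher. These were Srebf1, which drives lipid synthesis genes (log2 fold change -0.56, FDR = 0.0181), Klf15 (-0.89, FDR = 0.0318) and Cebpb, an early factor of fat cell formation (-0.56, FDR = 0.0347), of which the latter 2 passed in 3 and 2 of the 8 fits that left out 1 library. The factors that define the mature fat cell did not pass the test. Pparg was 27.1 ± 10.1 CPM with BAPN and 29.0 ± 6.11 with Vehicle (-0.10, SE 0.25, FDR = 0.798), and Cebpa was 132 ± 24.3 and 135 ± 52.2 CPM (-0.04, SE 0.28, FDR = 0.929). Of 5 tested genes of fat cell precursors, Zfp423 (-1.52, SE 0.22, FDR = 0.00776) and Cd34, which endothelium also makes (-0.95, SE 0.25, FDR = 0.0349), were called lower. Prdm16, the 1 tested thermogenic gene, was also called lower (log2 fold change -0.89, SE 0.26, FDR = 0.0483). It was highest in Vehicle 4 (10.6 CPM), the library lowest in Adipoq.

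Of the 6 tested genes of fatty acid and glycerol uptake, 1 was called higher (7.5% of all tested genes) and 0 lower, and the log2 fold changes were above 0 for 3 and below 0 for 3 (Acsl1 -0.54, Gpihbp1 -0.52 and Slc27a1 -0.20). Lpl, lipoprotein lipase, had 1459, 1838, 2445 and 4692 CPM in BAPN 1 to 4 and 2188, 3665, 2107 and 506 CPM in Vehicle 1 to 4 (log2 fold change 0.30, SE 0.62, FDR = 0.715). Fabp4, the fatty acid carrier of fat cells, which macrophages and capillary endothelium also make, had 1014, 1199, 1644 and 2904 CPM in BAPN 1 to 4 and 1134, 1572, 1040 and 413 CPM in Vehicle 1 to 4 (0.70, SE 0.46, FDR = 0.269). Fabp5, a related carrier, was the gene called higher (1.14, SE 0.39, FDR = 0.0495), just within the threshold, and passed in 1 of the 8 fits that left out 1 library. Lpl, Fabp4 and Fabp5 were highest in BAPN 4 and lowest in Vehicle 4. Of the 6 macrophage markers, Cd68 had this course as well (1596 and 376 CPM), Csf1r was highest in Vehicle 2 and lowest in Vehicle 4, and Adgre1, Cd163, Mrc1 and C1qa were highest in BAPN 1, with Adgre1 and Cd163 lowest in BAPN 4. The part of macrophages in these values was not tested.

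**Figure D3:**
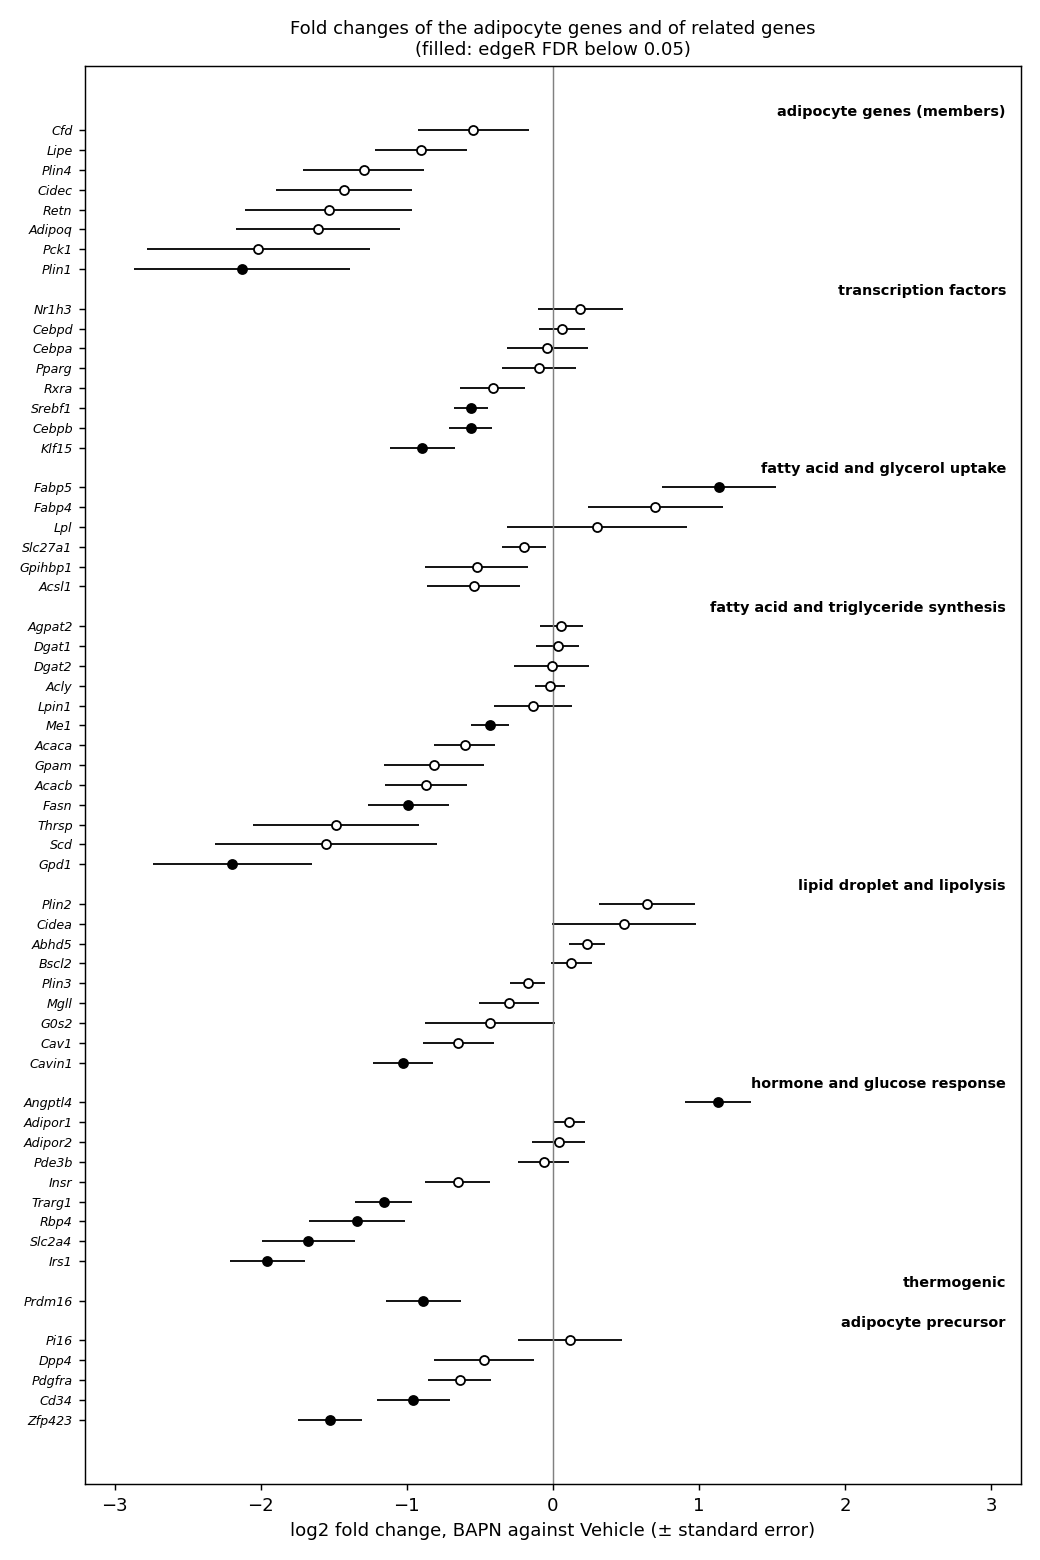
Log2 fold change of BAPN against Vehicle (horizontal axis, edgeR) for the 8 tested adipocyte genes and tested genes of the wider set, grouped by role. Bars are standard errors from a separate fit (limma voom), and points are filled where the edgeR FDR was below 0.05. The adipocyte genes all lie left of 0 with 1 filled point (Plin1), while genes with smaller standard errors, such as Irs1 and Zfp423, are filled.

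The calls differed in how far they rested on single libraries. Irs1, Zfp423, Trarg1, Slc2a4 and Angptl4 passed the threshold in 8 of the 8 fits that left out 1 library, and Cavin1 and Srebf1 in 7. Gpd1 passed in 5, Rbp4 in 4, Klf15 and Cd34 in 3, Cebpb in 2, Fabp5 in 1 and Prdm16 in 0. Without Vehicle 4 the FDR was 0.067 for Klf15, 0.0705 for Cd34, 0.119 for Prdm16 and 0.0551 for Fabp5.

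To find transcripts with the same course over the libraries, each tested gene outside the lists was correlated with the mean scaled log2 CPM of the 8 tested adipocyte genes (n = 8 libraries, no test). The 10 genes most alike were Cdo1 (r = 0.972), Pom121 (0.959), Atf6b (0.957), Ca3 (0.956), Map2k7 (0.951), Ambra1 (0.946), Lrig2 (0.941), Nrgn (0.940), Kmt2b (0.938) and Gsn (0.937). They differed in size. Ca3, a carbonic anhydrase, had 94.9, 61.9, 65.6 and 50.01 CPM in BAPN 1 to 4 and 308, 278, 135 and 43.5 CPM in Vehicle 1 to 4. Cdo1, cysteine dioxygenase, had 15.5, 11.7, 11.9 and 8.66 CPM in BAPN 1 to 4 and 37.4, 34.9, 25.1 and 16.5 CPM in Vehicle 1 to 4. Gsn, gelsolin, which severs actin filaments, ran from 832 to 3349 CPM. Atf6b ran only from 88.4 to 113.8 CPM, so that its likeness lay in the order of the libraries and not in the size of the change. With each group's mean subtracted, r was 0.971 for Cdo1, 0.956 for Ca3 and 0.955 for Gsn. Of the wider set, Gpd1 was the most alike (r = 0.960).

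**Figure D4:**
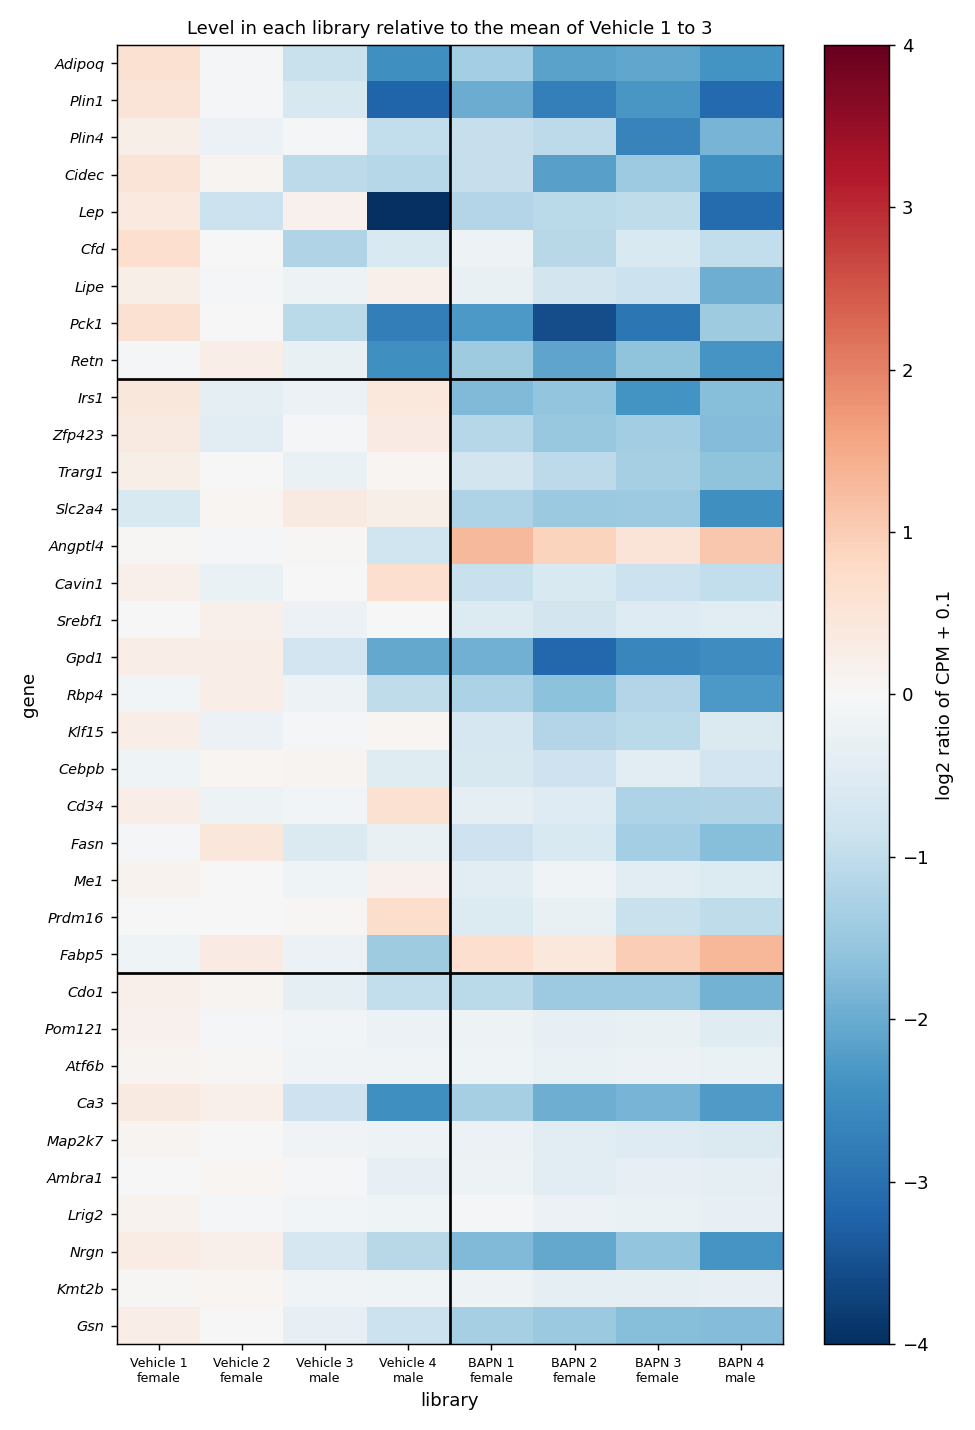
Level in each library (columns) relative to the mean of Vehicle 1 to 3, as the log2 ratio of CPM + 0.1 (colour, limited to 4 in each direction), for the 9 adipocyte genes, wider genes past the threshold and the 10 genes most alike (rows, 3 blocks). Vehicle 4 is as dark as the BAPN libraries for Adipoq, Plin1, Retn, Pck1, Gpd1 and Ca3 and near white or red for Irs1, Trarg1, Slc2a4 and Cavin1; the Lep value of Vehicle 4 rests on 0 reads and lies beyond the colour limit.

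Markers of other cell types moved with the groups as well, and their part in the fat cell values was not tested. Beside the counts that follow, edgeR called 9.25% of all tested genes lower and 7.5% higher, DESeq2 called 15.1% lower and 12.3% higher, and at an unadjusted edgeR p below 0.05 there were 18.4% lower and 17.4% higher. Smooth muscle markers were called lower with BAPN for 4 of 6 (summed level 1435 to 3991 CPM with BAPN and 2974 to 5622 with Vehicle). Endothelial markers were called lower for 2 of 5 tested, Tek and Vwf (sums 201 to 390 and 477 to 1203 CPM). With Cdh5 added, 3 were lower at an unadjusted p below 0.05 and 3 were called lower by DESeq2. Vwf was highest in Vehicle 1 (768 CPM), the library highest in Adipoq, and Cdh5 (336 CPM), Kdr (81.6 CPM) and Erg (82.9 CPM) were highest in Vehicle 4, the library lowest in Adipoq. Of 6 fibroblast markers (sums 22985 to 36089 and 28092 to 93848 CPM), edgeR called 0, with 3 lower at an unadjusted p below 0.05 and 3 called lower by DESeq2. Of 6 macrophage markers (2510 to 3164 and 1805 to 2883 CPM), 0 passed by any of these. Of 6 Schwann cell markers (386 to 701 and 273 to 414 CPM), edgeR called 0, with 1 higher (Mbp) at an unadjusted p below 0.05 and 0 by DESeq2, and of 2 tested skeletal muscle markers (16.1 to 29.98 and 17.1 to 69.7 CPM) edgeR called 0, with 1 lower (Acta1) by each of the others. Of 5 tested T cell markers (22.8 to 74.3 and 13.7 to 29.95 CPM) edgeR called 1 higher (Cd2), with 3 higher at an unadjusted p below 0.05 and 2 called higher by DESeq2. Of the B cell markers (2.15 to 34.7 and 2.13 to 7.20 CPM) and keratinocyte markers (1.96 to 24.6 and 0.741 to 5.26 CPM), 1 each was tested, and both (Cd79b and Dsg3) were called higher, but each reached the base mean filter only through BAPN libraries in which it was high, so neither call says anything of its list. Cd79b had 256, 398, 336 and 35 reads in BAPN 1 to 4 but at most 46 in any Vehicle library, and the 5 untested B cell markers had higher mean CPM with BAPN as well. Dsg3 had 925, 694, 13 and 4 reads in BAPN 1 to 4 but at most 2 reads in any Vehicle library, so it was tested through BAPN 1 and 2. The untested keratinocyte markers were mixed: Krt5 (means of 2.29 CPM with BAPN and 0.106 CPM with Vehicle) and Krt14 (0.530 and 0.153 CPM) ran the same way as Dsg3, and Krt10 (1.39 and 2.78 CPM) and Krt1 (0.187 and 0.479 CPM) the other way.

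Mammary transcripts, which would mark gland in the same fat pad, had 0 of 4 tested genes called by edgeR or DESeq2 (1 higher at an unadjusted edgeR p below 0.05, Krt8) and summed to between 3.30 and 137 CPM with BAPN and between 4.06 and 127 CPM with Vehicle. Csn1s1, a casein, was 55.4 CPM in BAPN 2 and 56.4 CPM in Vehicle 2, and Csn3 and Lalba had 0 reads in both libraries numbered 4. Csn2 had 0 reads in BAPN 2 and 357 in Vehicle 2, and Krt8 was 12.1 and 2.37 CPM there. The part of gland tissue in the fat cell values was not tested.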

How the data were processed

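RNA of 8 outflow veins was measured by ribosome-depleted, stranded total RNA sequencing. The authors deposited whole-number read counts per gene, without normalization, as 1 file for each rat. The notes of the submitters name bcl2fastq 2.17, Trim Galore and STAR. The counting tool, its strand setting and the genome build are not given in the sources used here, so reads of overlapping or near-identical genes may be shared. Groups, sex and replicate numbers came from the sample labels.

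Counts were compared by edgeR 4.0.16 (TMM, quasi-likelihood test, treatment as the only term, R 4.3.3) for the 11682 genes whose base mean (DESeq2 size factors) reached 100, the filter of the study. FDR values are Benjamini-Hochberg adjusted over these genes, with a threshold of 0.05. Standard errors came from limma 3.58.1 (voom). DESeq2 1.42.0 was an alternative. Exact permutation tests of log2 CPM (prior count 2) were two-sided over 70 arrangements. Steps were tested on simulated data. Libraries of a group differed by more than counting noise (chi-square per degree of freedom 68.6 to 321), so each counted as 1 replicate.

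The 9 genes and all lists were chosen with earlier results of these data known. All 9 are named, with the 12 wider genes of lowest FDR, 8 preset wider genes (Pparg, Cebpa, Fabp4, Lpl, Cd36, Pnpla2, Slc2a4 and Ucp1) and the 10 genes outside the lists most alike. Fabp5, Prdm16, Plin2, Plin3, Acsl1, Gpihbp1, Slc27a1, Mlxipl and the single marker genes were named after their values were seen. Pecam1, Trbc1, Myh1, Myh2 and Trp63 were not analysed here, and 1 gene of the wider set is not reported here. Alternatives were other scalings and filters, sex, females alone, a replicate block, equal totals and each library left out. DESeq2 without Vehicle 4 was added after seeing the data.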

Additional observations from a re-analysis of the deposited data

Results flagged for a closer look

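The Lep level of BAPN 4, 0.188 CPM from 9 reads, lay far below the other BAPN libraries (0.975 to 1.11 CPM), with a gap to the nearest of them of 0.856 of the group's range, past the 95% limit of Dixon's test for 4 values. Chance alone passes this limit in about 1 of 20 groups. Both groups of all 9 genes were screened, so 1 flag is near what chance alone gives.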

How the results depend on the processing

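The log2 fold changes of the 8 tested genes stayed below 0 in 19 of 19 alternatives, with a median between -1.81 and -1.10, and 0 were called higher. The number called lower was 1 with edgeR (9.25% of all tested genes) and 7 with DESeq2 (15.1%). It was 4 with sex as a covariate (4.63%) and 3 in females alone (0.462%). DESeq2 without Vehicle 4, chosen after seeing the data, called 6. The number called lower was 0 with the replicate block and 0 to 4 when single libraries were left out. It stayed 1 with the other scalings and filters and equal totals. Of the wider genes, 15 lower (9.25% of all tested genes) became 21 with DESeq2 (15.1%). They became 10 with sex as a covariate (4.63%) and 3 in females alone (0.462%). With DESeq2 without Vehicle 4 they were 18, and with the replicate block 7. When single libraries were left out they were 4 to 12 (4 without Vehicle 1, 7 without BAPN 4, 9 without BAPN 3). Of these last fits, only edgeR without Vehicle 4 had its share of all tested genes worked out (4.67%). The 2 higher became 0 in females alone and with the block, and 1 with median-of-ratios, upper-quartile or library-total scaling, filterByExpr, sex as a covariate, and equal totals. They were 1 to 2 when single libraries were left out. The difference in Lep turned to 0.167 with a prior count of 0.5, and to 0.298 without BAPN 4, 0.363 without Vehicle 1 and 0.291 without Vehicle 3. It was -1.56 without Vehicle 4. The cause of these changes was not tested, but fewer libraries enter the fits that leave any out.

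The replicate numbers were not taken as pairs, since the correlations of same-numbered deviations were 0.0944, -0.265, 0.269 and -0.14. Lep in BAPN 4 and Vehicle 4, with 9 and 0 reads, is limited by depth, and Vehicle had fewer reads than BAPN.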
